A study of Mus musculus with 9 samples.

Results

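Foxp3 encodes the forkhead transcription factor that defines regulatory T cells (Tregs), and 7 further genes encode factors that control the Foxp3 gene or bind Foxp3 protein. These are the forkhead genes Foxp1, Foxo1 and Foxo3, the RUNX genes Runx1 and Runx3, Cbfb, which encodes the common partner of RUNX proteins, and the chromatin organiser Satb1. The 8 genes were taken by symbol, and all 8 were present among the 23393 gene rows used and passed the filter on low counts. RNA was sequenced from spleen Tregs of Mus musculus in 9 samples, 3 in each of 3 groups. The ST2-low and ST2-high groups are wild-type Tregs with low and high ST2, the receptor for interleukin-33 encoded by Il1rl1, and the last group carries the genotype label ST2KO. The series as a whole is about ST2-positive Tregs and the kidney after ischemia, but the labels name no treatment, time, age or strain, no sorting gate, and no extent of the deletion. They also do not say whether samples came from separate mice, so p-values weigh group differences only against the spread between these samples, and that spread may be technical. ST2KO Tregs were not divided by ST2 level in the labels, so genotype and ST2 sort cannot be told apart in comparisons of ST2KO with either wild-type group.

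In T cells, FOXO1 and FOXO3 enter the nucleus when PI3K and AKT signalling is low and bind regulatory DNA of Foxp3 and of homing and survival genes. RUNX1 and RUNX3 bind DNA as heterodimers with CBFB, act on a conserved enhancer in the Foxp3 gene, and also associate with Foxp3 protein. SATB1 opens enhancers of Treg genes in thymic precursors and is repressed by Foxp3 in mature Tregs, while FOXP1 shares many binding sites with Foxp3.

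Libraries held between 11659659 and 43406680 counts, and levels are given as CPM, that is counts scaled to library size with TMM factors, as mean ± SD with n = 3. Il1rl1 stood at 2.62 ± 0.837 CPM in ST2-low, 495 ± 66.0 in ST2-high and 67.6 ± 14.03 in ST2KO. Because counts are summed over a whole gene and the deleted exons are not named, the ST2KO value is no check of that label. ST2-high replicate 3 stood further from its group (chi-square per gene of 17.4 and 21.2) than any other pair of same-group libraries (at most 8.64), so values without it are given below. Summed T cell markers lay between 1891 and 2099 CPM over the 9 libraries. Summed Treg markers, Foxp3 among them, ran from 5597 to 5780 CPM in ST2-low, 6142 to 6593 in ST2-high and 3914 to 4064 in ST2KO. Of the 8 Treg markers, 4 were called higher and 3 lower in ST2KO against ST2-low: Il2ra rose from a mean of 402 to 496 CPM and Nrp1 from 212 to 335 CPM, while Ctla4 and Lrrc32, which carry much of the sum, were lower. Myeloid and dendritic cell markers were lower in ST2KO: 12 of 15 were called lower against ST2-low, and their sum was 293 to 381 CPM against 474 to 589 CPM in ST2-low and 503 to 581 CPM in ST2-high. Of 12 B cell markers, 6 were lower in ST2KO than ST2-low, with sums of 105 to 138 CPM against 120 to 185 CPM, and 4 of 4 tested plasma cell markers were lower. Of all tested genes, 33.0% were called higher and 29.3% lower in ST2KO against ST2-low. The part of these marker shifts in the ST2KO results below was not tested. In these bulk samples, fewer cells of a type and less RNA per cell cannot be told apart.

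Between ST2-high and ST2-low, Foxp3 and Runx3 were higher, Foxp1, Foxo1, Foxo3 and Satb1 were lower, and Runx1 and Cbfb were not called, by edgeR's quasi-likelihood test adjusted over 12219 genes. Thus 6 of 8 genes were called in this comparison, where 26.1% of all tested genes were (15.3% higher and 10.8% lower). In ST2KO against ST2-low, 3 of 8 were called, Foxo1, Runx3 and Satb1, all lower, while 62.3% of all tested genes were called (33.0% higher and 29.3% lower). In ST2KO against ST2-high, Foxp1 and Foxo3 were higher and Foxp3, Foxo1, Runx3 and Satb1 lower, which makes 6 of 8, close to the 64.5% of all tested genes (31.9% higher and 32.6% lower). The share of members called thus lay above the background between the wild-type groups and below it in ST2KO against ST2-low. The 8 genes and the lists below were chosen with earlier results of these data known, so such shares are a description and no test. Libraries of both groups did not overlap for 6 of 8 genes between the wild-type groups, for 4 of 8 in ST2KO against ST2-low and for 6 of 8 when ST2KO was set against ST2-high, where 38.1%, 67.2% and 66.8% of all tested genes did not overlap. The 3 comparisons share samples, so they are not independent of each other. Without ST2-high replicate 3, the 12 calls that involve ST2-high all held: the log2 differences of ST2-high against ST2-low were then 0.23 for Foxp3, -0.46 for Foxp1, -0.305 for Foxo1, -0.34 for Foxo3, 0.64 for Runx3 and -0.65 for Satb1. Those of ST2KO against ST2-high were -0.35, 0.37, -0.24, 0.19, -1.14 and -0.71 for the same genes. The median log2 change of the 8 genes was -0.12 between the wild-type groups, -0.11 for ST2KO against ST2-low and -0.12 for ST2KO against ST2-high, and the medians over all tested genes were -0.0024, 0.05 and 0.02.

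**Figure D1:**
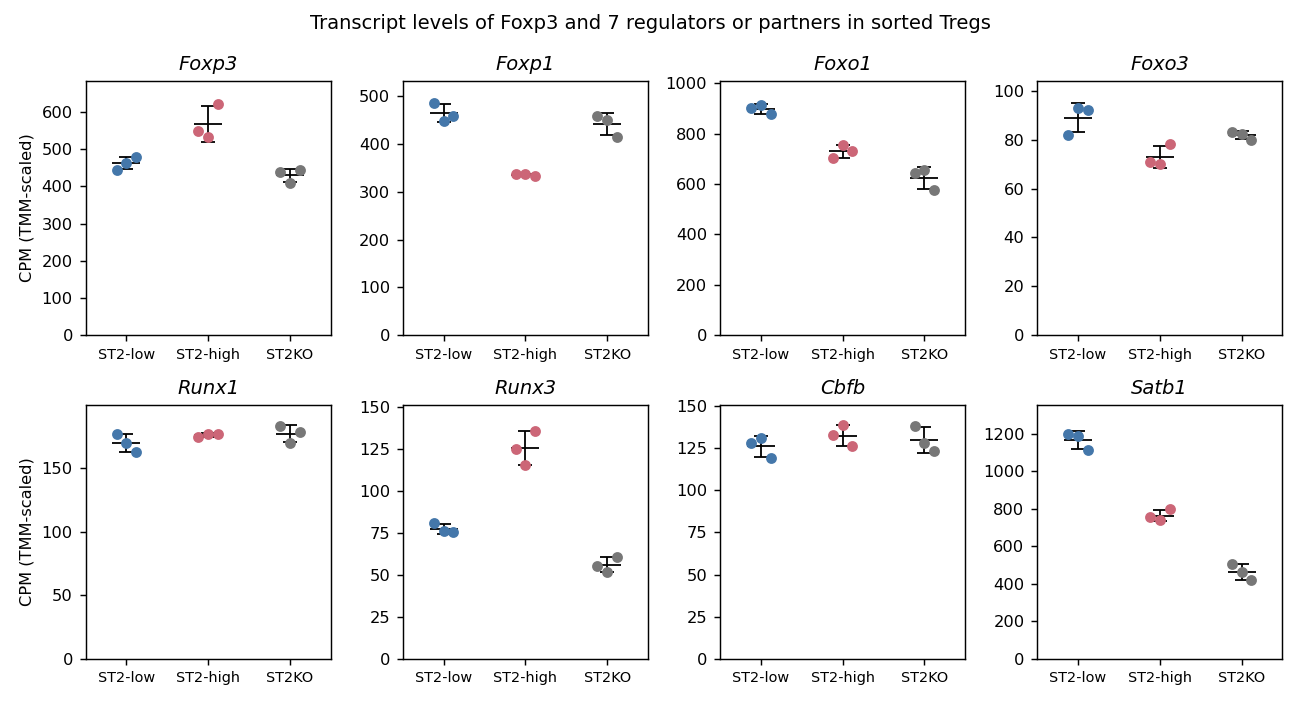
Level of each of the 8 genes in CPM (vertical axes start at 0 and differ between panels) in the 3 ST2-low, 3 ST2-high and 3 ST2KO libraries; points are libraries, long horizontal lines are means and whiskers are SD. Satb1 steps down from ST2-low to ST2-high to ST2KO, Runx3 is highest in ST2-high and lowest in ST2KO, and the Runx1 and Cbfb libraries lie at similar levels in all groups.

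Foxp3 itself was read at 445, 462 and 478 CPM in the 3 ST2-low libraries, at 550, 532 and 622 in ST2-high and at 437, 410 and 443 in ST2KO. All ST2-high libraries lay above all others, and all ST2KO libraries lay just below all ST2-low libraries. ST2-high exceeded ST2-low by 1.23-fold (log2 0.30 ± 0.0563 SE, edgeR adjusted p = 1.39e-04). ST2-high replicate 3 held the highest Foxp3 level of all libraries. ST2KO was 1.32-fold lower than ST2-high (adjusted p = 3.56e-07). ST2KO differed from ST2-low by -0.10 on the log2 scale, with a 95% interval of -0.22 to 0.01, and was not called (adjusted p = 0.117). That call depends on the fit: without ST2-high replicate 3, a library of neither group compared, the log2 difference was -0.13 with an adjusted p of 0.0124, and over the alternatives other than a minimum fold the adjusted p ran from 0.00664 to 0.64. For ST2-high against ST2-low, 29.2% of tested genes had a larger absolute change than Foxp3, so Foxp3 was among the changed genes but not near their top.

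Ccdc22 overlaps the 3' end of Foxp3 in the RefSeq annotation, and without a stated strand setting reads of both genes could be shared. Ccdc22 stood at 41.5 ± 0.716 CPM in ST2-low, 34.3 ± 2.71 in ST2-high and 40.4 ± 2.95 in ST2KO. It was lower in ST2-high than ST2-low (log2 -0.29, adjusted p = 0.00501), opposite in direction to Foxp3.

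Foxp1, a forkhead factor of the same subfamily as Foxp3 and a maintainer of naive T cell quiescence, was read at 485, 448 and 459 CPM in ST2-low and at 337, 337 and 334 CPM in ST2-high. The ST2KO libraries held 459, 450 and 415 CPM, within or just below the ST2-low range. The 3 ST2-high libraries thus stood alone, 1.38-fold below ST2-low (log2 -0.47 ± 0.0517 SE, edgeR adjusted p = 2.43e-08). ST2KO was 1.31-fold above ST2-high (adjusted p = 9.55e-08). Against ST2-low the ST2KO difference of -0.07 on the log2 scale had a 95% interval of -0.18 to 0.03 and was not called (adjusted p = 0.232). Foxp3 and Foxp1 therefore moved in opposite directions between the wild-type groups. The ratio of Foxp3 to Foxp1 counts within a library, which does not depend on scaling between libraries, was 0.996 ± 0.068 in ST2-low, 1.69 ± 0.150 in ST2-high and 0.977 ± 0.0805 in ST2KO.

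Foxo1, which drives homing receptors and survival genes in resting T cells, was read at 904, 915 and 878 CPM in ST2-low, 703, 754 and 732 in ST2-high and 645, 656 and 576 in ST2KO. The groups did not overlap, and the order was ST2-low, then ST2-high, then ST2KO. ST2-high was 1.23-fold lower than ST2-low (log2 -0.30, edgeR adjusted p = 6.21e-05) and ST2KO was 1.44-fold lower than ST2-low (log2 -0.52, adjusted p = 9.42e-10). ST2KO was also 1.17-fold lower than ST2-high (adjusted p = 0.000677). Foxo3, a close relative with overlapping target sites, was read at 82.2, 93.0 and 92.1 CPM in ST2-low, 70.8, 70.3 and 78.1 in ST2-high and 83.4, 82.3 and 80.0 in ST2KO. The ST2-high libraries were lower than all others, and the ST2KO libraries overlapped the lowest ST2-low library. Foxo3 fell 1.22-fold in ST2-high against ST2-low (log2 -0.29, adjusted p = 0.00054). ST2KO was 1.12-fold above ST2-high (adjusted p = 0.0168), a call that was lost without ST2KO replicate 1 (adjusted p = 0.0647), ST2-high replicate 1 (0.148) or ST2-high replicate 2 (0.0678). Foxo3 in ST2KO against ST2-low, with a log2 difference of -0.12 and a 95% interval of -0.24 to 0.0047, was not called (adjusted p = 0.0876), but it was called without ST2-low replicate 1 (adjusted p = 0.0231), ST2-high replicate 1 (0.0409) or ST2-high replicate 3 (0.0199). The relatives thus moved alike between the wild-type groups: the ratio of Foxo1 to Foxo3 counts, not adjusted for gene length, was 10.1 ± 0.773 in ST2-low and 10.01 ± 0.683 in ST2-high. In ST2KO the ratio was 7.64 ± 0.401, with no overlap with either wild-type group.

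Runx1 and Runx3 gave different pictures although their proteins bind the same DNA sequence. Runx1 was read at 177, 170 and 163 CPM in ST2-low, 174, 177 and 176 in ST2-high and 183, 170 and 178 in ST2KO. The 3 groups overlapped, and Runx1 was not called in any comparison by the edgeR test as set up here (adjusted p = 0.531 between the wild-type groups, 0.301 for ST2KO against ST2-low and 0.856 for ST2KO against ST2-high). The 95% intervals of its log2 differences were -0.05 to 0.15, -0.04 to 0.17 and -0.09 to 0.12 in that order. With upper-quartile scaling Runx1 was called higher in ST2KO than ST2-low (log2 0.13, adjusted p = 0.0226). Runx3, which silences Cd4 and supports cytotoxic and tissue-resident programmes in T cells, was read at 80.7, 75.9 and 75.6 CPM in ST2-low, 125, 116 and 136 in ST2-high and 55.2, 52.0 and 60.7 in ST2KO. Its groups did not overlap, with ST2-high at the top and ST2KO at the bottom. Runx3 was 1.62-fold higher in ST2-high than ST2-low (log2 0.70 ± 0.0634 SE, adjusted p = 4.84e-10). ST2KO was 1.39-fold lower than ST2-low (adjusted p = 3.37e-07) and 2.25-fold lower than ST2-high (adjusted p = 7.90e-16).

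Runx3 is abundant in CD8 T cells and natural killer cells, so their markers were set beside it. The summed CD8 T cell markers were 16.8 to 17.7 CPM in ST2-low, 14.1 to 14.7 in ST2-high and 11.6 to 14.8 in ST2KO, and Cd8a was at most 2.22 CPM in any library. The summed natural killer cell markers were 20.6 to 23.5 CPM in ST2-low, 16.4 to 18.7 in ST2-high and 21.0 to 23.8 in ST2KO, and Klra8 had no count. Both sums were lower in ST2-high than ST2-low, while Runx3 was higher. In that comparison 0 of 3 tested CD8 T cell markers and 1 of 5 tested natural killer cell markers were called lower, beside 10.8% of all tested genes. The part of either cell type in the Runx3 result was not tested.

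Cbfb, which stabilises RUNX proteins on DNA, was read at 128, 131 and 119 CPM in ST2-low, 132, 139 and 126 in ST2-high and 138, 128 and 123 in ST2KO. The groups overlapped, and no comparison was called (edgeR adjusted p = 0.381, 0.457 and 0.73 in the order used for Runx1). The 95% intervals of its log2 differences were -0.04 to 0.19, -0.07 to 0.16 and -0.14 to 0.09. The quotient of Cbfb counts to Runx1 and Runx3 counts together was 0.51 ± 0.0209 in ST2-low, 0.44 ± 0.0347 in ST2-high and 0.558 ± 0.0364 in ST2KO.

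The promoters of the RUNX genes are shown because Runx1 and Runx3, so different in their levels, carry the same paired RUNX motif at 1 promoter each. RefSeq gives 17 promoter windows for the 8 genes on GRCm38.p6, each from 250 bases before to 50 bases after a start. They were searched on both strands for the RUNX motifs TGTGGT and TGCGGT, which no window of these genes held together, and for the forkhead motif TGTTTAC. The first motif, TGTGGT, was found in 2 windows, the distal promoters of Runx1 and Runx3, where 16.8% of 32817 RefSeq promoter windows hold it. Each of these windows holds 2 matches on the minus strand of the gene, with starts 8 bases apart, and such close pairs on 1 strand, a search added after these sequences were seen, occur in 0.0975% of all windows. The sequences, 5′ to 3′ on the strand of the gene with the matches in capitals (ACCACA is TGTGGT read on the other strand), lie at chr16:92826025-92826054 on the minus strand for Runx1, with the pair beginning 28 bases after the start, and at chr4:135120503-135120532 on the plus strand for Runx3, with the pair beginning 134 bases before the start. Both share the 18 bases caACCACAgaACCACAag.
Runx1 distal promoter: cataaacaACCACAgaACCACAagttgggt
Runx3 distal promoter: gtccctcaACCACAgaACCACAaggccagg
TGCGGT was found in 1 window, at the most upstream Foxp1 start (chr6:99521034-99521063, minus strand, 58 bases before the start), where 6.45% of all windows hold it; ACCGCA is its reverse complement.
Foxp1 most upstream promoter: cttgcgcctgccACCGCAgccctatcccac
The forkhead motif was in none of the 17 windows, against 3.65% of all windows. For Runx3, which unlike Runx1 was called in every comparison, the 250 bases before the distal start (chr4:135120395-135120644, plus strand) read as follows, again with the matches in capitals.
Runx3 upstream sequence: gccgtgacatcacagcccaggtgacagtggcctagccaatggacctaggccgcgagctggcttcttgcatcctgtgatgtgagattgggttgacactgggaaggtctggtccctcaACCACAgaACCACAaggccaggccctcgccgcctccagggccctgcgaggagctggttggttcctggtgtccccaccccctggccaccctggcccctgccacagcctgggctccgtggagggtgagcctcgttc
Counts per gene symbol do not show which promoter of Runx1, Runx3 or Foxp1 was used, and a match is a description of the reference sequence only.

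Satb1 was called lower in all 3 comparisons, and its difference between ST2KO and ST2-low was the largest of the 8 genes in that comparison. It was read at 1199.9, 1191 and 1114 CPM in ST2-low, 756, 738 and 797 in ST2-high and 506, 464 and 421 in ST2KO. The groups did not overlap, and each ST2KO library stood below each ST2-high library. Satb1 was 1.53-fold lower in ST2-high than ST2-low (log2 -0.61 ± 0.058 SE, edgeR adjusted p = 1.22e-09) and 2.52-fold lower in ST2KO than ST2-low (log2 -1.33 ± 0.0589 SE, adjusted p = 5.37e-18). ST2KO was 1.64-fold lower than ST2-high (adjusted p = 7.18e-12). For ST2KO against ST2-low, 7.996% of tested genes had a larger absolute change than Satb1. Foxp3 and Satb1 counts had a ratio of 0.396 ± 0.0298 in ST2-low, 0.743 ± 0.0325 in ST2-high and 0.933 ± 0.105 in ST2KO, without overlap between any of the groups.

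Satb1 is high in immature thymocytes and in conventional T cells, so markers of both were compared. The recombinase genes Rag1 and Rag2 and the pre-T cell receptor gene Ptcra were at most 0.314 CPM in any library. Cd1d1 and Dntt had their highest means in ST2KO, unlike Satb1. In ST2-low, ST2-high and ST2KO, Cd1d1 stood at 24.2, 25.65 and 26.6 CPM and Dntt at 1.10, 0.732 and 1.90 CPM. The sum of all 6 immature thymocyte markers followed the order of Satb1, at 306 to 319 CPM in ST2-low, 276 to 282 in ST2-high and 227 to 232 in ST2KO, and was carried by Rmnd5a, with means of 288, 253 and 202 CPM. The summed conventional T cell markers had the same order, at 258 to 300 CPM in ST2-low, 184 to 202 in ST2-high and 143 to 152 in ST2KO. The largest part of this sum in the wild-type groups was Ifngr2, an interferon-gamma receptor chain, at 196 to 227 CPM in ST2-low, 134 to 142 in ST2-high and 40.8 to 43.4 in ST2KO. Cd40lg, the CD40 ligand gene of activated conventional T cells, went the other way in ST2KO, at 33.4 to 33.7 CPM against 15.1 to 17.9 CPM in ST2-low. Igfbp4, the largest of these markers in ST2KO, was also highest there, with means of 51.9 CPM in ST2-low, 36.0 in ST2-high and 70.1 in ST2KO, and Il2 was at most 0.351 CPM. Of 4 tested conventional T cell markers, 2 were higher and 1 lower in ST2KO against ST2-low. Of 3 tested immature thymocyte markers, 1 was higher and 1 lower in that comparison, where 33.0% of all tested genes were higher and 29.3% lower. The part of either cell type in the Satb1 result was not tested.

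**Figure D2:**
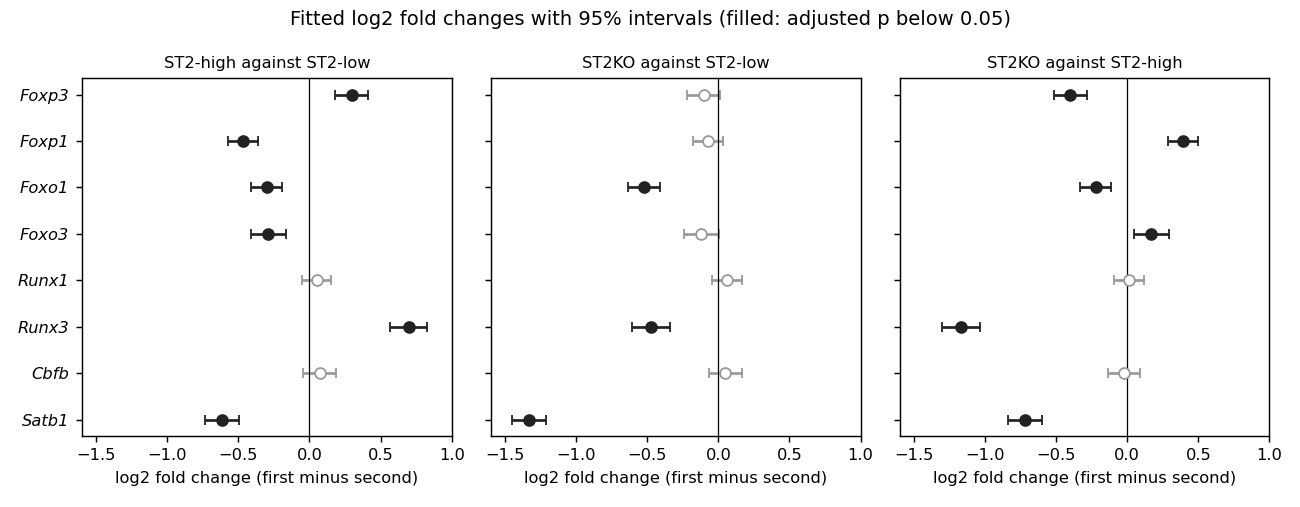
Log2 fold change of the 8 genes from the edgeR fit in the 3 comparisons named above the panels; filled points pass an adjusted p of 0.05, points are estimates and bars are 95% intervals, and the line at 0 marks no difference. Runx1 and Cbfb intervals include 0 in all 3 comparisons, Satb1 lies below 0 in all 3, and Foxp3 and Foxp1 lie on opposite sides of 0 between ST2-high and ST2-low.

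The count ratios between pairs of these genes give the same contrasts free of library scaling. Of 15 ratio comparisons, 12 did not overlap between groups, and each of those reached the exact two-sided permutation p of 0.1, the smallest that 3 against 3 samples allow (0.125 after Benjamini-Hochberg adjustment over the 15), so none can pass 0.05. The ratio of Runx1 to Runx3 was 2.19, 2.23 and 2.15 in the ST2-low libraries, 1.39, 1.53 and 1.30 in ST2-high and 3.32, 3.26 and 2.93 in ST2KO. This ratio, not adjusted for gene length, was lowest in the ST2-high libraries and highest in those of ST2KO. The Runx1 to Runx3 ratio was 1.56-fold lower in ST2-high than ST2-low, 1.44-fold higher in ST2KO than ST2-low and 2.26-fold higher in ST2KO than ST2-high. The Foxp3 to Foxp1 ratio was 1.69-fold higher in ST2-high than ST2-low and 1.73-fold lower in ST2KO than ST2-high, while ST2KO and ST2-low overlapped (exact p = 0.9). The Foxp3 to Satb1 ratio was 1.88-fold higher in ST2-high and 2.35-fold higher in ST2KO than ST2-low. The Foxo1 to Foxo3 ratio was 1.32-fold lower in ST2KO than ST2-low and 1.31-fold lower than ST2-high, while the wild-type groups overlapped (exact p = 0.8). The quotient of Cbfb to both RUNX genes was 1.16-fold lower in ST2-high than ST2-low and 1.27-fold higher in ST2KO than ST2-high, while ST2KO and ST2-low overlapped (exact p = 0.2).

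**Figure D3:**
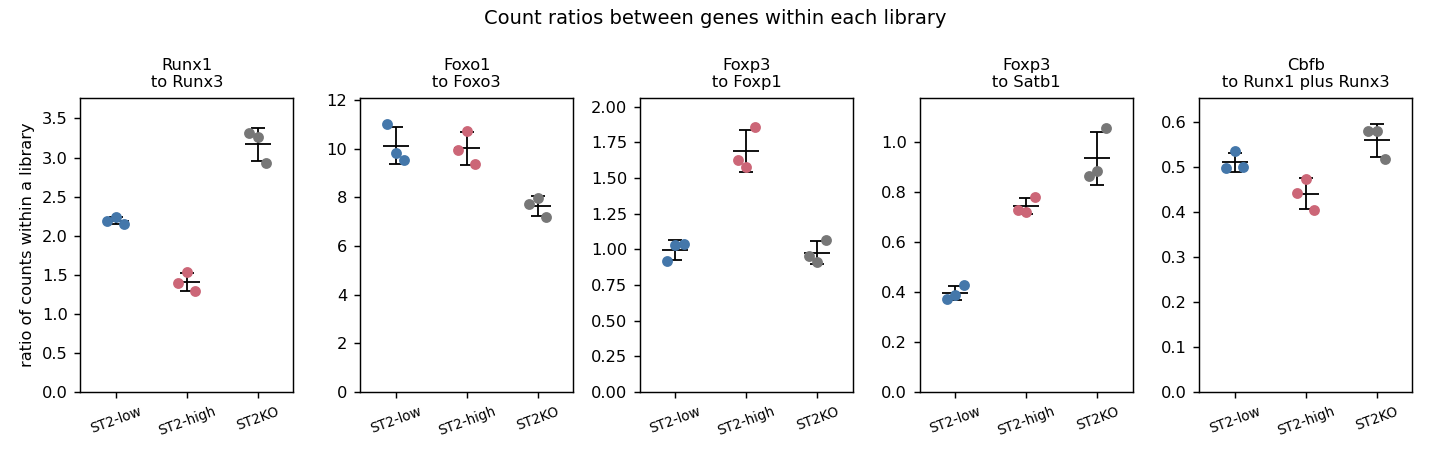
Ratio of raw counts between members within each library (vertical axes start at 0 and differ between panels) in ST2-low, ST2-high and ST2KO; points are the 3 libraries of a group, long horizontal lines are means and whiskers are SD. The Runx1 to Runx3 ratio is lowest in ST2-high and highest in ST2KO, and the Foxo1 to Foxo3 ratio is lower in ST2KO than in both wild-type groups.

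To set levels of different genes side by side, CPM were divided by length in kilobases, with the length of the longest coding transcript in GENCODE vM21 (GRCm38; the authors' annotation is not given in the sources used here). In ST2-low the order was Satb1 at 187 ± 7.55 CPM per kb, Foxp3 at 120 ± 4.26, Foxo1 at 104 ± 2.17, Foxp1 at 64.7 ± 2.63, Cbfb at 43.6 ± 2.17, Runx1 at 29.0 ± 1.20, Runx3 at 19.9 ± 0.735 and Foxo3 at 13.0 ± 0.875. No 2 neighbours in that order overlapped over the 3 libraries. In ST2-high Foxp3 headed the order at 148 ± 12.5 CPM per kb, above Satb1 at 122 ± 4.89, and Runx3 at 32.3 ± 2.63 stood beside Runx1 at 29.98 ± 0.247, with overlapping libraries. Foxp1 and Cbfb also lay close in ST2-high, at 46.8 ± 0.237 and 45.8 ± 2.12 CPM per kb, with overlapping libraries. In ST2KO Foxp3 led at 112 ± 4.603 CPM per kb, followed by Satb1 at 74.3 ± 6.87 and Foxo1 at 72.2 ± 5.05, which overlapped, and Runx3 at 14.4 ± 1.13 was near Foxo3 at 11.96 ± 0.249. The places of long genes with many annotated exons depend on the length chosen: over all annotated exons, Satb1 stood in the third place in ST2-low at 61.4 CPM per kb, below Foxo1 at 104 and Foxp3 at 101. By that length Satb1 was in place 5 in ST2KO, at 24.4 CPM per kb. Runx3 then stood above Runx1, at 15.5 against 14.1 CPM per kb in ST2-low and 25.1 against 14.6 in ST2-high, but below it in ST2KO. Foxp1 and Cbfb were then apart in ST2-high, at 24.4 and 38.1 CPM per kb.

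The genes whose pattern over the 9 samples was most like that of each member were found among 7555 tested genes of at least 10 CPM, by the root mean square difference of mean-centred log2 CPM. For Foxp3 these were Faah, a fatty acid amide hydrolase (0.0409), Stim1, the calcium sensor of the endoplasmic reticulum (0.0543), Madd (0.0548), Irgm2, an interferon-inducible GTPase (0.055), and Ppp2r4, an activator of phosphatase 2A (0.0557). The nearest to Foxp1 were Mtss1 (0.0412), Ndrg3 (0.0413) and the follicular homing receptor Cxcr5 (0.0582). The nearest to Foxo1 was another forkhead gene, Foxn3 (0.0551), at 251 ± 13.1 CPM in ST2-low, 197 ± 1.58 in ST2-high and 169 ± 11.6 in ST2KO, with Heca (0.0551) and Epc2 (0.0597) next. Foxo3 was most like Zfp609 (0.044), Baz2b (0.0519) and Lphn1 (0.0531). Runx1 and Cbfb, both nearly level, shared Sh3kbp1 among their nearest genes (0.0306 and 0.0392). Runx3 was less closely matched, with the endocytosis gene Snx9 (0.0708), Tnfrsf18, which encodes the Treg receptor GITR (0.0836), and Syngr2 (0.0882). Near to Satb1 were Ugcg, the glucosylceramide synthase gene (0.0583), and Bcl2l11, which encodes the death factor BIM (0.0874).

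Other members of the forkhead and RUNX families were examined as a list of 19, of which 14 were tested. In ST2-high against ST2-low 3 were higher and 2 lower, 4 higher and 4 lower in ST2KO against ST2-low, and 6 higher and 4 lower when ST2KO was set against ST2-high. Called in that order were 35.7%, 57.1% and 71.4% of the list, against 26.1%, 62.3% and 64.5% of all tested genes. Runx2, the remaining RUNX gene, followed the order of Runx3, at 53.6 ± 6.92 CPM in ST2-low, 84.1 ± 9.25 in ST2-high and 39.3 ± 1.65 in ST2KO. It was 1.56-fold higher in ST2-high than ST2-low and 2.15-fold lower in ST2KO than ST2-high. Foxm1, a forkhead factor of dividing cells, was 1.78-fold higher in ST2-high than ST2-low, at 26.5 ± 1.62 against 14.9 ± 0.673 CPM, and stood at 10.9 ± 0.776 CPM in ST2KO. Foxk1, a forkhead factor of metabolism, was 1.48-fold higher in ST2KO than ST2-low, at 223 ± 8.77 against 151 ± 2.89 CPM.

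Of 42 listed factors that control the Foxp3 gene, 41 were tested. In ST2-high against ST2-low 14 were higher and 9 lower, with a median log2 change of -0.0078. Irf4, a factor of effector Tregs, was 1.91-fold higher (178 ± 5.92 against 93.5 ± 3.35 CPM), and Bach2, a repressor of effector genes, was 1.60-fold lower (185 ± 6.90 against 294 ± 9.03 CPM). In ST2KO the list was mostly lower, with 24 of 41 lower and 13 higher against ST2-low (median log2 -0.29) and 24 lower and 12 higher against ST2-high (median -0.37). The shares of the list called were 56.1%, 90.2% and 87.8% in the order of comparisons used above, against 26.1%, 62.3% and 64.5% of all tested genes. Among the 24 lower than in ST2-low, Stat5a, which relays interleukin-2 signals, was 4.74-fold lower (140 ± 5.58 against 666 ± 9.72 CPM), and Rel, the NF-kB subunit c-Rel, 3.36-fold lower (149 ± 6.29 against 499 ± 23.1 CPM). The Foxp3 level in ST2KO was within 0.22 log2 units of ST2-low by its 95% interval, and whether it was called lower depended on the fit, as given above. A link between these factors and the Foxp3 level was not tested. Of 41 listed proteins that bind or modify Foxp3 protein, 40 were tested, and 10 were higher and 10 lower in ST2-high against ST2-low, 12 higher and 19 lower in ST2KO against ST2-low, and 12 higher and 21 lower when ST2KO was set against ST2-high. The kinase gene Pim1 was 1.72-fold higher in ST2-high than ST2-low and 2.76-fold lower in ST2KO than ST2-high, and the acetyltransferase gene Kat5 was 1.92-fold lower in ST2KO than ST2-low (33.4 ± 4.03 against 64.7 ± 2.81 CPM).

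All 25 listed genes that are activated with Foxp3 in Tregs were tested. In ST2-high against ST2-low 18 were higher and 4 lower, with a median log2 change of 0.43, beside a Foxp3 difference of 0.30. The integrin gene Itgae (CD103) was 4.74-fold higher, at 157 ± 21.1 against 32.9 ± 3.28 CPM, and the costimulatory receptor gene Icos 1.89-fold higher, at 827 ± 12.04 against 438 ± 8.80 CPM. In ST2KO against ST2-low 13 were lower and 11 higher (median -0.33). Ctla4, an inhibitory receptor gene, was 2.54-fold lower (786 ± 40.9 against 1996 ± 46.9 CPM), and Lrrc32, which presents latent TGF-beta, was 3.29-fold lower (377 ± 20.03 against 1238 ± 25.8 CPM), while Foxp3 was not called in that comparison. In ST2KO against ST2-high 18 were lower and 7 higher (median -0.84), beside a Foxp3 difference of -0.40. Called in the order of these comparisons were 88.0%, 96.0% and 100% of the list, against 26.1%, 62.3% and 64.5% of all tested genes. Of 16 listed genes that are repressed with Foxp3, 12 were tested, and 2 were higher and 4 lower in ST2-high against ST2-low, 4 higher and 6 lower in ST2KO against ST2-low, and 5 higher and 5 lower when ST2KO was set against ST2-high. Tcf7, a factor of naive T cells, was 1.41-fold lower in ST2-high than ST2-low (216 ± 11.9 against 305 ± 3.21 CPM), whereas Id2, a factor of effector cells, was 1.96-fold higher. Cd40lg was 2.004-fold higher in ST2KO than ST2-low.

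Of 32 listed FOXO target genes, 31 were tested, and more of them were lower than higher in all 3 comparisons. In ST2-high against ST2-low 15 were lower and 7 higher, with a median log2 change of -0.22. Bcl6, a factor of follicular T cells, was 1.60-fold lower (133 ± 8.12 against 213 ± 6.58 CPM), and Bcl2l11 1.43-fold lower, whereas the stress gene Gadd45b was 2.26-fold higher (181 ± 7.88 against 79.9 ± 6.27 CPM). In ST2KO against ST2-low 20 were lower and 9 higher (median -0.59). The lymph node homing receptor gene Ccr7 was 11.1-fold lower (180 ± 5.51 against 2004 ± 50.7 CPM), Bcl6 was 6.20-fold lower (35.0 ± 4.29 CPM in ST2KO) and Bcl2l11 2.51-fold lower (82.6 ± 2.78 against 208 ± 9.89 CPM). In ST2KO against ST2-high 21 were lower and 6 higher (median -0.44). Called in the order of these comparisons were 71.0%, 93.5% and 87.1% of the list, against 26.1%, 62.3% and 64.5% of all tested genes. Foxo1 transcript was lower in the first group of each of these comparisons too, but a link between it and these genes was not tested. The counts hold no measure of FOXO protein or its place in the cell.

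The genes of the PI3K, AKT and mTOR pathway, which keeps FOXO proteins out of the nucleus, were called higher and lower in similar numbers. All 33 were tested, and 5 were higher and 6 lower in ST2-high against ST2-low, 10 higher and 11 lower in ST2KO against ST2-low, and 12 higher and 12 lower when ST2KO was set against ST2-high. The shares called, 33.3%, 63.6% and 72.7%, lay near the 26.1%, 62.3% and 64.5% of all tested genes. Sgk1, an AKT-related kinase gene, was 1.73-fold higher in ST2-high than ST2-low (118 ± 4.78 against 67.9 ± 4.43 CPM) and 2.41-fold lower in ST2KO than ST2-high. In ST2KO, Pik3cd, the catalytic subunit p110 delta of leukocytes, was 1.63-fold higher than ST2-low (523 ± 28.0 against 321 ± 3.80 CPM), and the AKT phosphatase gene Phlpp1 was 2.39-fold lower (109 ± 5.11 against 259 ± 8.89 CPM).

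Of 25 listed RUNX cofactors and modifiers, 22 were tested, and 2 were higher and 5 lower in ST2-high against ST2-low, 5 higher and 10 lower in ST2KO against ST2-low, and 5 higher and 9 lower when ST2KO was set against ST2-high. The shares called, 31.8%, 68.2% and 63.6%, lay near the 26.1%, 62.3% and 64.5% of all tested genes. The balance of this list in ST2KO against ST2-high turned with upper-quartile scaling (9 higher and 5 lower), and 3 rather than 5 were lower in ST2-high against ST2-low without ST2-high replicate 1. The histone methyltransferase gene Setdb1 was 1.68-fold higher in ST2KO than ST2-low (73.8 ± 2.75 against 44.0 ± 0.934 CPM). Of 23 listed T cell genes regulated by RUNX proteins, 21 were tested, with 7 higher and 4 lower in ST2-high against ST2-low, 6 higher and 6 lower in ST2KO against ST2-low, and 5 higher and 7 lower when ST2KO was set against ST2-high. For these genes the shares called were 52.4%, 57.1% and 57.1%, the last 2 below those of all tested genes. Gzmb, which encodes granzyme B and is activated by RUNX3 in cytotoxic cells, was 3.42-fold higher in ST2-high than ST2-low (36.3 ± 1.15 against 10.6 ± 1.58 CPM) and stood at 8.94 ± 1.05 CPM in ST2KO, where its libraries overlapped those of ST2-low (adjusted p = 0.0472). Zbtb7b, which encodes the CD4 lineage factor ThPOK and is silenced by RUNX proteins in CD8 T cells, was 3.59-fold higher in ST2KO than ST2-low (129 ± 6.32 against 36.0 ± 1.38 CPM). Itgae, also listed with the genes activated with Foxp3, did not follow the order of Runx3, at 67.4 ± 3.23 CPM in ST2KO.

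Of 28 listed genes regulated by SATB1 or acting with it in chromatin loops, Runx3 among them, 24 were tested. In ST2-high against ST2-low 7 were higher and 7 lower, 5 higher and 11 lower in ST2KO against ST2-low, and 7 higher and 10 lower when ST2KO was set against ST2-high, where 4 rather than 7 were higher without ST2-high replicate 1, ST2-high replicate 3 or ST2-low replicate 2. Called in that order were 58.3%, 66.7% and 70.8% of the list, against 26.1%, 62.3% and 64.5% of all tested genes. The survival gene Bcl2 was 1.64-fold lower in ST2-high than ST2-low (190.5 ± 10.2 against 313 ± 3.72 CPM) and stood at 339 ± 22.5 CPM in ST2KO, so it did not follow the order of Satb1, whereas Bcl6 did. Several genes sit in more than 1 list (Ctla4, Bcl6, Ccr7, Itgae, Icos and Zbtb7b among those named), so the lists are not independent of each other.

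**Figure D4:**
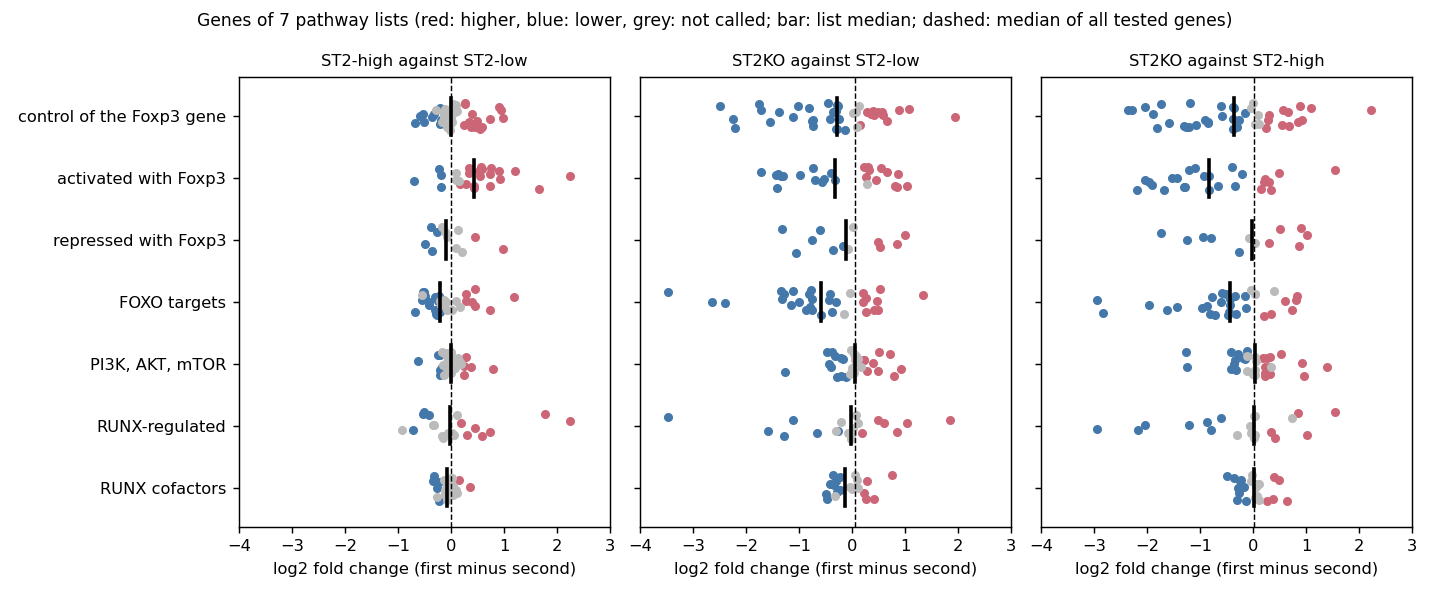
Log2 fold change (horizontal axes) of the tested genes of 7 lists in the 3 comparisons; each point is a gene, red where called higher, blue where called lower and grey where not called by edgeR, the thick bar is the median of the list and the dashed line the median of all tested genes. The FOXO target medians lie below the dashed line in all 3 comparisons (-0.22, -0.59 and -0.44), and the median of genes activated with Foxp3 lies above it in ST2-high against ST2-low (0.43) and below it in ST2KO against ST2-high (-0.84).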

How the data were processed

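RNA sequencing counts per gene symbol were deposited by the authors for 9 samples, 1 file each. The values are whole numbers with no normalization, judged from the deposited count files. For the authors' aligner, build, annotation, counter, kit and strand, no value is given in the sources used here. Of 23420 rows per file, 27 held calendar dates in place of symbols (0.182% to 0.206% of counts) and were left out. Filtering with filterByExpr (minimum count 10, total 15) left 12219 genes; 6642 rows had no count. Groups were compared in R 4.3.3 with the quasi-likelihood test of edgeR 4.0.16 (robust, TMM factors, all 9 samples in 1 fit). P-values were adjusted by Benjamini-Hochberg over the 12219 genes and called at 0.05, and the procedure was tested on simulated data. All same-group libraries differed beyond sampling noise (chi-square per gene at least 4.61), and each was counted as 1 replicate. That difference does not show that the libraries came from separate mice. Intervals are 95% intervals of the log2 difference and rest on the spread between these samples. Likeness used log2 CPM with a prior count of 2.

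The 8 members and all lists were chosen with earlier results of these data known. Named are the 8 members, up to 4 genes of at least 1 CPM per list and comparison, taken by smallest adjusted p, the nearest genes in pattern (5 for Foxp3, 3 for each other member), and Il1rl1, except that some genes so named are not reported here; Ccdc22 was added for its overlap with Foxp3. Alternatives were DESeq2 size factors, upper-quartile factors, leaving out the ribosomal RNA row, the Wald test of DESeq2 1.42.0, voom of limma 3.58.1, no filter or one at 5 CPM in 3 samples, fits of only the 6 libraries compared, a block on the replicate number, thinned libraries, leaving out each sample, a minimum fold of 1.5, and for ratios 0.5 added to each count. Promoters came from RefSeq (GRCm38.p6). Protein sequences were not analysed here.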

Additional observations from a re-analysis of the deposited data

How the results depend on the processing

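Of 24 differences of the 8 genes (15 called, 9 not), 14 of the called ones stayed called with the same sign in each of the 19 alternatives other than a minimum fold. The exception was Foxo3 in ST2KO against ST2-high, whose log2 difference ran from 0.12 to 0.19 with single replicates left out. Requiring a minimum fold of 1.5 left 3 differences called by edgeR, those of Satb1 in ST2KO against ST2-low (adjusted p = 6.59e-13) and against ST2-high (0.0217) and of Runx3 in ST2KO against ST2-high (9.10e-10). Under it the other 12 log2 differences were no longer called: in ST2-high against ST2-low Foxp3 (0.30), Foxp1 (-0.47), Foxo1 (-0.30), Foxo3 (-0.29), Runx3 (0.70) and Satb1 (-0.61), in ST2KO against ST2-low Foxo1 (-0.52) and Runx3 (-0.47), and in ST2KO against ST2-high Foxp3 (-0.40), Foxp1 (0.39), Foxo1 (-0.22) and Foxo3 (0.17). This test asks whether a change exceeds 1.5-fold by more than its error. All-gene counts under it were 335 higher and 12 lower, 1025 and 1086, and 1027 and 1351, in that order of comparisons. A filter at 5 CPM turned the all-gene balance in ST2-high against ST2-low, to 1456 higher and 1666 lower. The balance of ST2KO against ST2-high (3892 and 3984) turned with upper-quartile factors (4582 and 3443) and without the ribosomal RNA row (3971 and 3896). That of ST2KO against ST2-low turned with size factors (3729 and 3829), the DESeq2 Wald test (3576 and 3723) and only the 6 samples compared (3819 and 3888).

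In ST2KO against ST2-low, 4 differences that were not called became so in some settings. Foxp3 was called lower with DESeq2's Wald test (-0.138), DESeq2 size factors (-0.138) and only the 6 samples compared (-0.1385), and its range with single replicates left out was -0.131 to -0.068. Foxo3 was called lower with the same settings (-0.156, -0.1559 and -0.1561), with a range of -0.176 to -0.0965. Foxp1 was called lower with only the 6 samples compared (-0.108), and Runx1 higher with upper-quartile factors (0.132). The cause was not tested. Differences near 0 that were never called changed sign. Cbfb in ST2KO against ST2-low ran from -0.0008 to 0.0852 with single replicates left out. In ST2KO against ST2-high, Runx1 was -0.0009 with the Wald test and -0.0014 with size factors, with a range of -0.0218 to 0.0417, and Cbfb was 0.0557 with upper-quartile factors, with a range of -0.0789 to 0.012. The 15 ratio comparisons kept their direction in all 105 alternative values. Other scalings moved the median over all genes by at most 0.0789 log2 units.

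Same-numbered libraries did not deviate together (correlations of -0.063 to 0.098, with 0 of 9 pairs over 0.1). No pairing by number was thus seen, but so few libraries per group cannot exclude one. With the replicate block, 0 of 24 calls changed, and all-gene counts were 1875 higher and 1335 lower, 4039 and 3583, and 3894 and 3991, against 1872 and 1317, 4030 and 3577, and 3892 and 3984 without it. Depth sets no visible limit for these 8 genes, each read at over 50 CPM in every library.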
